A study of Rattus norvegicus with 19 samples.

Results

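Malignant peripheral nerve sheath tumours (MPNST) of the rat were compared with one another, to show which genes differ in level from tumour to tumour and which vary together. The set holds the 12 MPNST arrays of a series of 19 Illumina rat arrays, chosen by their labels alone. The microtumour and the 6 pools of untreated nerve in the series were not used. Every tumour arose on a trigeminal nerve after N-ethyl-N-nitrosourea (ENU, a DNA-alkylating carcinogen) had been injected subcutaneously into the newborn (postnatal day 1, 80 µg for each g of weight), and was taken in adult life. Tumours T1, T2, T5, T7, T8, T9 and T10 came from F1 hybrids of the strains BDIV and BDIX, T3 and T4 from BDIX, T11 and T12 from BDIV, and T6 from the congenic strain BDIX.BDIV-Mss4a. T2, T7, T8, T9, T10 and T12 came from males and the other 6 tumours from females. Each array held RNA of a single tumour and no tumour was measured again, so a difference between tumours includes the error of an array. The labels do not say that all 12 tumours came from different animals, so p-values measure only the spread between these samples.

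Peripheral nerve sheath tumours arise from the Schwann cell lineage, the glia that wrap axons outside the brain and spinal cord. In rats, ENU given around birth induces such tumours in cranial and spinal nerves, and the trigeminal nerve is a common site. A trigeminal tumour may be cut together with axons and myelin of the nerve it grew in, with the neighbouring ganglion or brain stem, and with jaw muscle. In a bulk sample, more cells of a type and more RNA per cell cannot be told apart.

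Sox10, the transcription factor of Schwann cells and other neural crest glia, was detected in all 12 tumours at levels of 11.78 to 12.80. S100b, a calcium-binding protein of Schwann cells, was also detected in all 12, at 9.70 to 12.87. Levels are log2 of the background-corrected, quantile-normalized signal of a probe, and a probe is called detected where its detection p-value is under 0.05. Sox10 had an SD of 0.32 over the tumours, below the median of 0.38 over all features, and S100b one of 0.97, above it.

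Each tumour array detected 44.1% to 51.3% of its 21791 probes. The 11710 features detected in at least 3 tumours were ranked by the SD of their level over the 12 tumours, and 8483 of them carry a gene symbol. The median SD was 0.38, and the 5th and 95th percentiles were 0.19 and 0.94. An SD of at least 1 was found for 466 features (3.98%), of which 344 were named genes, and 22 features had an SD of at least 2. At this edge, Bcar3 had an SD of 1.00 and Efna5 one that was lower only in the fourth decimal. Of the 466, 199 were detected in all 12 tumours. Probes that are not detected mostly show a level near 4.7 (their median was 4.68, their 95th percentile 5.16 and the lowest level on any array 4.31). Levels there have no order, and the SD of a gene that is not detected in some tumours depends on that floor. Some probes are called not detected at higher levels, such as that of Kif11 at 9.75 in T2. The call alone therefore does not place a gene at the floor. Over all ranked features, the levels of any 2 tumours correlated at r = 0.91 (T2 and T12) to 0.98 (T3 and T4, both BDIX). This correlation is across features, which are not independent replicates.

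**Figure D1:**
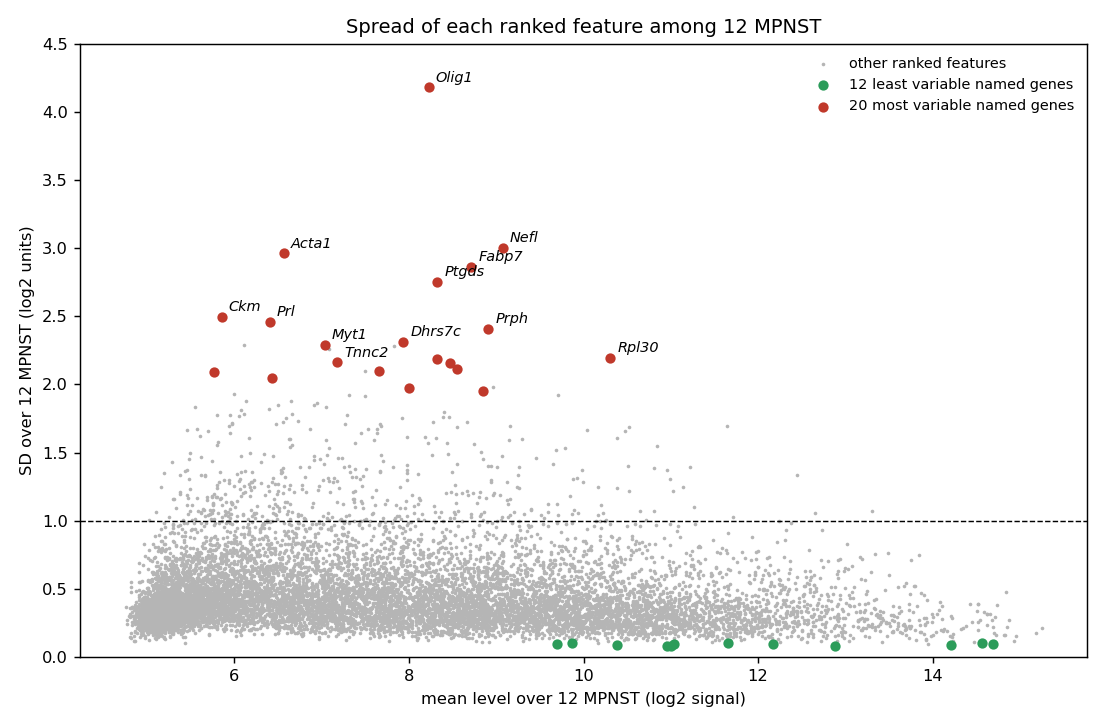
SD over the 12 MPNST (vertical axis, log2 units) of each ranked feature against its mean level (horizontal axis, log2 signal). Red points are the 20 most variable and green points the 12 least variable named genes, and the dashed line marks an SD of 1. Olig1 stands apart at an SD of 4.18, and the green points lie at high mean levels since the rule for them asked for a mean above the median feature.

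Olig1, a transcription factor of the oligodendrocyte lineage, was the most variable feature of all, with an SD of 4.18. Its level was 14.67 in T1, 13.53 in T4, 13.07 in T3 and 12.90 in T7, then 9.14 in T12 and 7.34 in T11, and it was not detected in T2, T5, T6, T8, T9 and T10, whose values ran from 4.44 to 5.21. T1, T3, T4 and T7 were thus far above the other 8 tumours, and T11 and T12, the BDIV tumours, lay in between. Olig2, its close relative and neighbour in the oligodendrocyte programme, was detected in 3 tumours only, at levels up to 5.82, and had an SD of 0.34. The other listed genes of oligodendrocyte precursors with an SD of at least 1 were Cspg4 (SD 1.40) and Pdgfra (SD 1.20). Pdgfra is a receptor for platelet-derived growth factor. Cspg4, the NG2 proteoglycan, was detected in all tumours at 8.43 to 13.20, and its levels did not follow those of Olig1. It was at 13.20 in T1 and 11.22 in T7, but at 10.28 in T4 and 10.12 in T3. Where Olig1 was not detected, Cspg4 ran from 8.43 in T9 to 12.69 in T2. In all, 3 of the 6 ranked members of this list reached an SD of 1, and the list is small.

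Nefl, the light chain of the neurofilaments of axons, was the second most variable feature, with an SD of 3.003. It reached 12.71 in T3, 12.20 in T6, 11.96 in T12, 11.50 in T5 and 10.64 in T11, and stood at 9.79 in T1, 9.78 in T4 and 9.07 in T7. It was 6.42 in T8 and 5.43 in T9, and was not detected in T2 and T10. T2, T8, T9 and T10, which were low, are all F1-hybrid males, and the fifth F1-hybrid male, T7, was the lowest of the other 8 tumours. Nefl averaged 7.05 in the 6 male tumours and 11.10 in the 6 female tumours, a difference of -3.05 ± 1.24 (SE, males minus females with strain as a covariate) that did not pass limma's moderated test (adjusted p = 0.57).

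Acta1, the actin of skeletal muscle fibres, and Tnnc2, the calcium sensor of fast muscle, had SDs of 2.96 and 2.16. Acta1 was at 13.14 in T2 and 12.07 in T10, at 8.05 in T11, and between 4.72 and 5.52 in the other 9 tumours. Tnnc2 was at 11.85 in T2, 11.63 in T10 and 7.30 in T11, and between 5.82 and 6.49 elsewhere. High levels were thus found in T2 and T10, both F1-hybrid males, with T11 next and far below them. A measure of spread that gives little weight to a few tumours, the median absolute deviation scaled to match an SD, was 0.46 for Acta1 and 0.30 for Tnnc2, against 2.64 for Olig1 and 3.40 for Nefl.

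**Figure D2:**
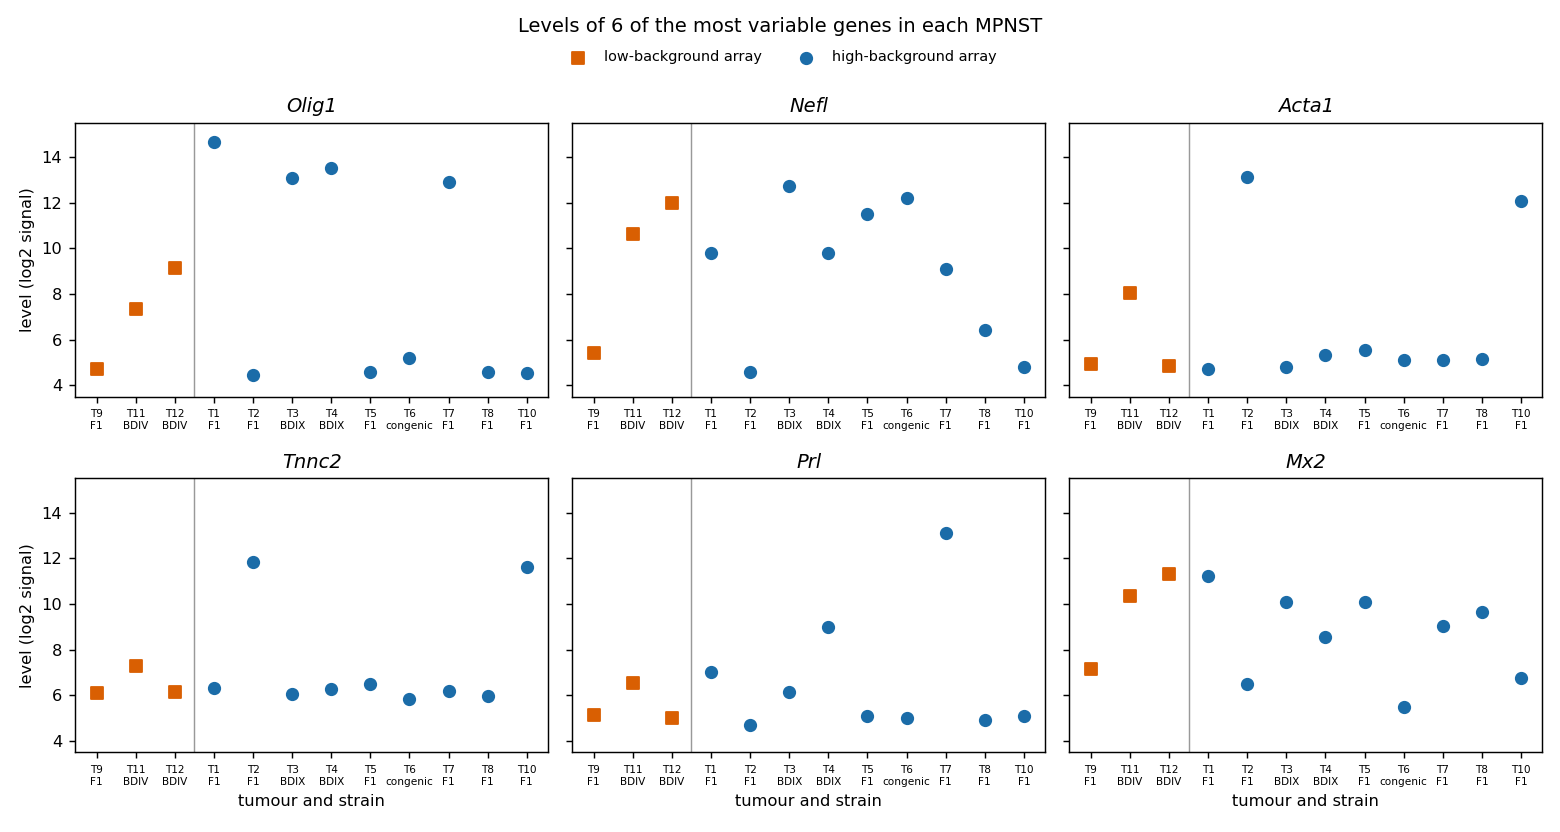
Level (log2 signal) of 6 of the most variable genes in each tumour, with tumour and strain on the horizontal axis. Orange squares are the 3 low-background arrays and blue circles the 9 high-background arrays. Olig1 is high in T1, T3, T4 and T7, Nefl is low in T2, T8, T9 and T10, Acta1 and Tnnc2 are high in T2 and T10, Prl is high in T7, and Mx2 takes intermediate values in several tumours.

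The other genes among the 20 most variable named genes had SDs from 1.95 to 2.86. Fabp7 (a fatty acid carrier of glial precursors) ranged from 4.85 in T2 to 12.43 in T3 and T12, with a median of 7.96. Ptgds, the brain form of prostaglandin D synthase, ranged from 4.83 in T9 to 13.29 in T3. Myt1, a zinc finger factor of neural precursors, reached 12.06 in T1 and 8.87 to 9.37 in T3, T4 and T7. Omg, an oligodendrocyte and myelin glycoprotein, was detected in all tumours, from 5.51 in T2 to 11.85 in T1, and the glutamate receptor subunit gene Gria2 lay between 8.10 and 9.28 in T1, T2, T3, T4 and T7 and at or below 5.51 in the other 7. T2 was low for Fabp7, Ptgds, Myt1 and Omg but not for Gria2.

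Dhrs7c, a short-chain dehydrogenase gene, was high in T8 (11.84), T9 (10.83) and T11 (10.29) and lowest in T12 (5.27). Tfap2b, a transcription factor of the neural crest, was highest in T2 (11.68), T11 and T8 (10.57) and was not detected in T4. Mdga2, which encodes an adhesion molecule of neurons, lay between 9.41 and 10.40 in T1 to T5 and was not detected in T9. Prl, the gene for the pituitary hormone prolactin, stood at 13.13 in T7 and 9.01 in T4 and at or below 7.02 in the other tumours. Dhrs7c and Tfap2b thus overlapped, both lying above the middle of their range in T2, T8, T9 and T11. Mdga2 lay above the middle of its range in T1 to T5 and T7, and Prl in T4 and T7.

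Rpl30, which encodes a protein of the large ribosomal subunit, was the only 1 of 25 ranked ribosomal protein genes with an SD of at least 1 (2.20). It stood at 5.70 in T3 and 6.13 in T6 and between 10.28 and 12.68 in the other 10 tumours. The 2 low tumours are a BDIX tumour and the congenic tumour, and T4, the other BDIX tumour, was at 10.72. The median SD of the 25 ribosomal protein genes was 0.23.

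The 12 least variable named genes, taken among features detected in all 12 tumours with a mean above the median of the ranked features, had SDs of 0.08 to 0.10. They were Arpc2 (a subunit of the Arp2/3 actin complex), Tmem134, Trappc13, Cab39 (a partner of the kinase LKB1), Rpl32, Rps4x and Rpl3 (ribosomal proteins), Mrps9 (of the mitochondrial ribosome), Pcnp, Nit1, Ppp2r3c (a phosphatase subunit) and Emc7. Arpc2 had the smallest SD of all ranked features and lay between 12.74 and 12.98 in every tumour. Quantile normalization forces all arrays onto a single distribution, and with median scaling in its place the SDs of these genes were 0.17 to 0.25, below the median of 0.41 that all features had under that scaling.

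Gene lists differed in how many members were variable. For skeletal muscle, 12 of 17 ranked members (70.6%) had an SD of at least 1, against 3.98% of all ranked features, and for sensory neuron and axon 13 of 22 did (59.1%). The array carries 26 genes of the muscle list, and those detected in fewer than 3 tumours were not ranked. Ckm was detected only in T2, T10 and T11, where it was highest, and was ranked only through them. Such a member had to vary, so the muscle share supports nothing. The shares were 3 of 8 for myelin and myelinating Schwann cells, 3 of 9 for astrocytes and oligodendrocytes, 6 of 19 for the interferon response, 4 of 13 for detoxification and 3 of 10 for fibroblasts. No member reached an SD of 1 among 31 cell cycle, 17 macrophage, 25 proteasome, 21 mitochondrial respiratory chain, 13 antigen presentation, 13 cholesterol synthesis, 14 glycolysis and hypoxia and 15 immediate early genes. At a share of 3.98% few or no such members would be found in lists of this size, so the counts of 0 are near the share of all features. The median SD was 0.28 for the respiratory chain and 0.29 for the proteasome, below the 0.38 of all features. It was above that in the other 6 lists: 0.63 for the cell cycle, 0.55 for immediate early genes, 0.53 for macrophages, 0.52 for cholesterol synthesis, 0.48 for antigen presentation and 0.47 for glycolysis and hypoxia. The lists were made with results of these data known and the counts are descriptions.

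Within the immature Schwann cell and neural crest list, 2 of 16 members had an SD of at least 1. Ngfr, the low-affinity nerve growth factor receptor of immature Schwann cells, stood at 13.24 in T2 and at 11.27 or more in 8 further tumours, but at 9.51 in T11, 9.38 in T1 and 8.20 in T12. Gfra3, a receptor for artemin, lay between 6.81 and 10.39 in 11 tumours and at 5.59 in T1. T1 was low for both, and the Gfra3 levels of T11 and T12 were 9.21 and 7.73.

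**Figure D3:**
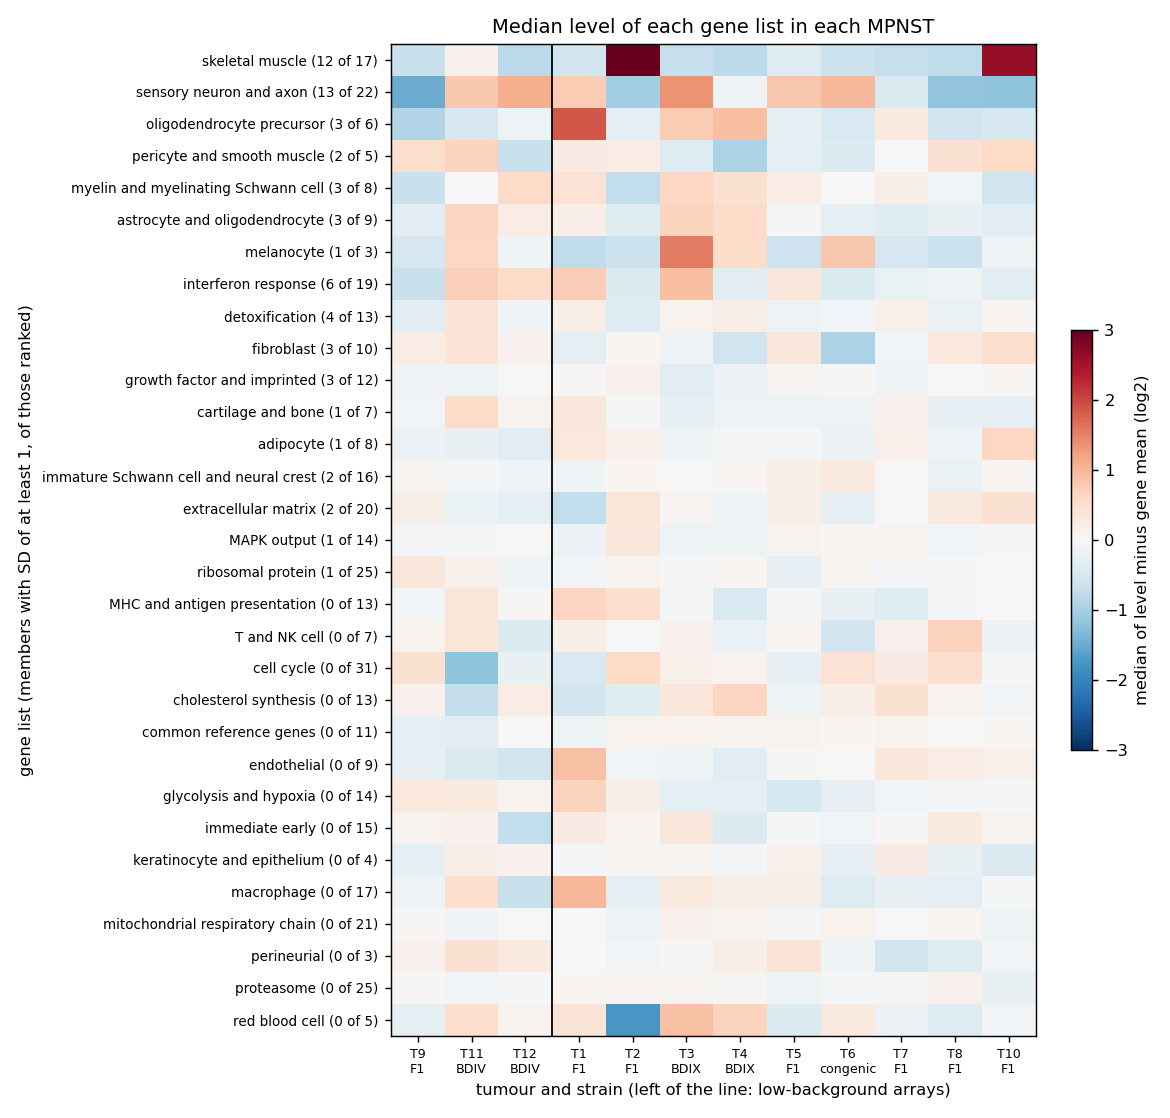
Median over the ranked members of each gene list of the level minus the gene's mean (colour, log2 units) in each tumour (columns, with strain), for lists with at least 3 ranked members. Numbers in brackets give the members with an SD of at least 1 of those ranked. The skeletal muscle list stands at 2.98 in T2 and 2.61 in T10, the sensory neuron and axon list is below its mean in T2, T4, T7, T8, T9 and T10, and the proteasome and respiratory chain lists stay between -0.22 and 0.13.

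To see which variable genes keep company, the 200 most variable named genes (SD of at least 1.20) were grouped by average-linkage clustering on 1 minus Pearson's r over the 12 tumours, with the tree divided at 0.5. This gave 11 groups of at least 5 genes that together hold 176 of the 200. The groups were built from the levels described, so no test is attached to them. The median r between ranked features was 0.0007.

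The largest group held 62 genes and followed Olig1, with a median r of 0.76 within it. Its members stood highest in T1 (median 2.60 above the gene mean), T3 (1.54), T4 (1.49) and T7 (0.95) and below their mean in the other 8 tumours. Besides Olig1, Fabp7, Ptgds, Myt1, Omg and Gria2 it contained Gfap (the intermediate filament of astrocytes, also made by some Schwann cells), Bcas1 (a myelin-associated protein of oligodendrocytes), Cspg5, Tnr, Cntn1, Npy, Igf2 and Hmox1 (heme oxygenase 1). Closest to Olig1 were Cntn1, an axonal adhesion molecule (r = 0.97, rho = 0.83), Asic4 (r = 0.96, rho = 0.70), Kcnip3 (r = 0.96, rho = 0.90), Cspg5 (r = 0.96, rho = 0.92), Adgrb3 (r = 0.95, rho = 0.83) and Slco1c1 (r = 0.95, rho = 0.71). The lowest r with Olig1 were those of Aspn (-0.74), Aqp1 (-0.68), Wnt4 (-0.67) and Tfap2b (-0.66). These genes were picked by their r over the 12 tumours, so no p is given. Kcnip3 was detected in the same 6 tumours as Olig1, and Cntn1, Asic4, Adgrb3 and Slco1c1 only in T1, T3, T4, T7 and T12. Their r with Olig1 thus largely sets detected levels against the floor, and their rho also ranks levels that have no order. Cspg5 was detected in all 12 tumours. Of the 466 features with an SD of at least 1, 72 had an r above 0.8 with Olig1 and 0 had an r below -0.8.

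Each feature was also divided at the middle of its own range. This reads the same levels again and includes members of the Olig1 group, so it is no separate support for that group. The sets were not counted over all ranked features. Of the 466 features, 34 were above their midpoint in exactly T1, T3, T4 and T7, the most common set, among them Olig1, Myt1, Cntn1, Bcas1 and Hmox1. The next most common set was T9, T11 and T12, with 26 features, most of them without a symbol. These are exactly the 3 arrays of low background signal described further on. T2 and T10 made up the set for 16 features.

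The second group held 34 genes and followed Nefl (median r within it 0.74). Its genes were below their mean by a median of 2.11 in T2, 1.80 in T10, 1.63 in T9 and 1.42 in T8, and above it by 1.55 in T12, 1.41 in T3 and 1.14 in T11. Its members include Prph (peripherin, an intermediate filament of peripheral neurons), Stmn2 and Stmn3 (tubulin-binding proteins of neurons), Tac1 (the precursor of substance P), Slc17a6 (a vesicular glutamate transporter), Snap25 and Syp (synaptic vesicle fusion and membrane proteins), with Mal, Gldn and Mbp of myelinating glia. Other members, such as Efemp1 and Fbln5, are of the extracellular matrix, and A2m, Gpd1 and Aldh1a1 were also in the group. Nearest to Nefl were Pcp4 (r = 0.99, rho = 0.99), Slc17a6 (r = 0.98, rho = 0.98), Snap25 (r = 0.96, rho = 0.92), Fbxo2 (r = 0.96, rho = 0.92), Stmn2 (r = 0.96, rho = 0.90) and Prph (r = 0.95, rho = 0.88). Farthest were Itga11 (r = -0.86), an integrin subunit of fibroblasts, Lyve1 (r = -0.81), a receptor of lymphatic endothelium and some macrophages, Rcsd1 (r = -0.80) and the lactate transporter gene Slc16a3 (r = -0.77).

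Prph gave values much like those of Nefl, from 5.23 in T10 and 5.42 in T9 to 11.60 in T3, with a median of 9.86. Mbp, myelin basic protein, had a narrower span, from 4.97 in T2 to 9.29 in T12. For Mbp, the 2 BDIV tumours, T11 (8.20) and T12, were above all 10 others, which reached 7.35 at most. Mbp was thus low in T2 and T9, as Nefl was, but T5 combined a high Nefl level of 11.50 with an Mbp level of 5.87. T10, where Nefl was not detected, had Mbp at 6.26, near the Mbp median of 6.27.

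The third group held 19 genes, mostly of the contractile apparatus of skeletal muscle, and stood at medians of 3.93 above the gene mean in T2 and 2.93 in T10. T11 followed at 0.16 and the other 9 tumours lay between -0.63 and -0.86. Nearest to Acta1 were Myl11, Ckm (muscle creatine kinase), Tnnc2, Mb (myoglobin), Tnnt3 and Myl1. No r is given for them because it would mostly set T2 and T10 against the other tumours. Ckm stood at 11.40 in T10, 10.63 in T2 and 6.79 in T11 and was not detected in the other 9 tumours. Mb was at 9.38 in T2, 8.52 in T10 and 5.59 in T11, and it too was not detected elsewhere. The genes lowest where Acta1 was highest were Gldn (gliomedin, which gathers sodium channels at nodes of Ranvier), Mal, Slc1a3 and Gnao1; Mal stood at 4.59 in T2 and 5.75 in T10 and at 7.04 to 9.81 in the other 10 tumours.

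The fourth group held 12 genes, of which Mx2, Mx1, Irf7, Ifit1, Oas1a, Zbp1, Rtp4 and Ifi27l2b are known to be induced by interferon. Its median r was 0.80, and it stood highest in T1 (1.96 above the gene mean), T11 (1.72) and T3 (1.31) and lowest in T6 (-1.95), T10 (-1.81) and T9 (-1.51). Irf7, the transcription factor that amplifies the interferon response, was at 10.90 in T1, 10.49 in T3, 10.08 in T11 and 9.91 in T12, and at 5.89 in T2 and 6.43 in T9. Mx2, an antiviral GTPase, ranged from 5.48 in T6 to 11.32 in T12 and was detected in every tumour. Unlike the muscle genes, these genes filled the range between their extremes: Mx2 took 8.55 in T4, 9.02 in T7 and 9.65 in T8.

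**Figure D4:**
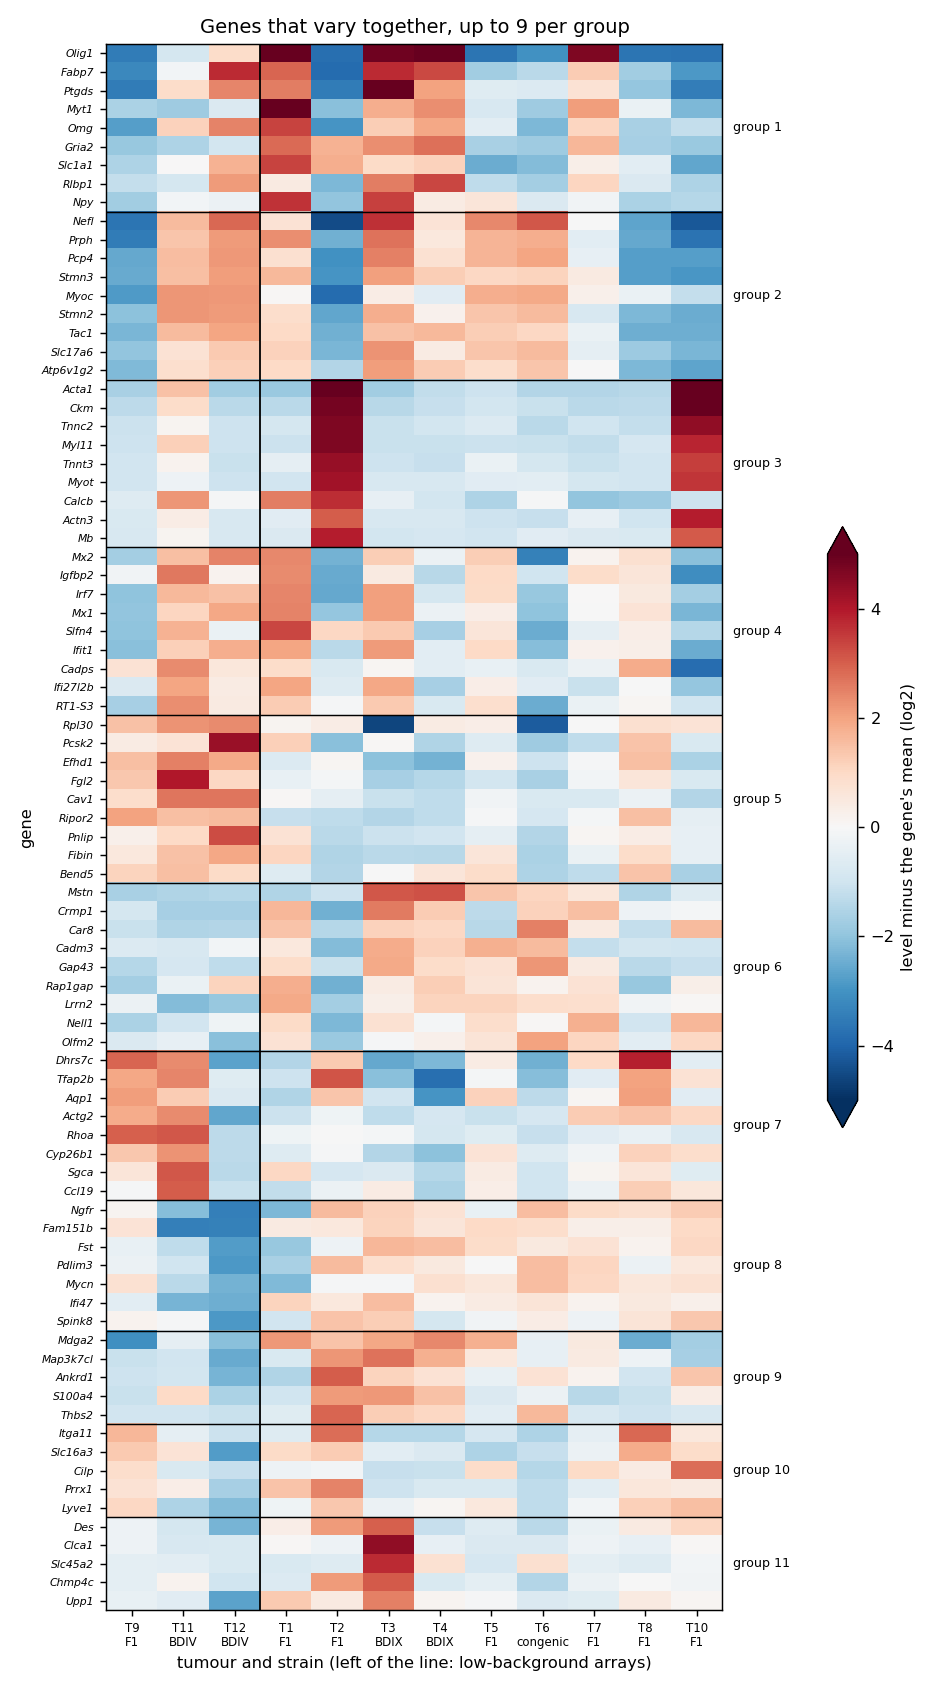
Level minus the gene's mean (colour, log2 units, with the scale ending at 5 in either direction) for up to 9 genes of each of the 11 groups, in the order of their SD, with tumours in columns and the 3 low-background arrays left of the line. The Olig1 group (1) is high in T1, T3, T4 and T7, the Nefl group (2) is low in T2, T8, T9 and T10, the muscle group (3) is high in T2 and T10, and the interferon group (4) is high in T1, T3, T11 and T12.

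Promoters are shown for genes of the muscle and interferon groups in which a motif of the regulators known for such genes was found. Sequences run 5′ to 3′ from 250 bases before to 50 bases after the RefSeq gene start (assembly GRCr8), and capitals mark the motif. The first motif is the interferon-stimulated response element, searched on both strands as GAAA, any 2 bases and GAAA again. It was found in 3 of the 7 interferon group genes with a promoter in the table (Irf7, Oas1a and RT1-S3) and in 3.92% of all 33469 promoters. The second is the E-box CAGCTG, bound by muscle regulators, which reads the same on both strands. It was found in 5 of the 15 muscle group genes with a promoter (Acta1, Ckm, Hjv, Myl11 and Myoz2) and in 15.1% of all promoters. The 15 include Ace, Plcxd3 and Steap1, which are not of the contractile apparatus and had no match. Matches are descriptions of the letters in these windows, and their absence, as in Mx1 or Tnnc2, says nothing of other regions. The motif starts 69 bases before the gene start in Irf7 and, as overlapping copies, 41 and 35 bases before it in Oas1a. It starts 237 bases before it in Acta1, 226 and 75 in Ckm, and 155 in Myl11. The promoters lie at chr1:205799974-205800273 on the minus strand (Irf7), chr12:41330216-41330515 on the plus strand (Oas1a), chr19:68784145-68784444 on the minus strand (Acta1), chr1:88189211-88189510 on the plus strand (Ckm) and chr1:191260039-191260338 on the plus strand (Myl11).
Irf7: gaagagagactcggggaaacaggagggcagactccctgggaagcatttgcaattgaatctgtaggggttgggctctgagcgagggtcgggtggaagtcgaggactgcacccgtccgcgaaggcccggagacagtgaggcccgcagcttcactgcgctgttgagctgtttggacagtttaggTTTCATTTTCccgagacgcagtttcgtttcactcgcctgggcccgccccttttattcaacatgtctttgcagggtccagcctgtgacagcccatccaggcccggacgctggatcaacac
Oas1a: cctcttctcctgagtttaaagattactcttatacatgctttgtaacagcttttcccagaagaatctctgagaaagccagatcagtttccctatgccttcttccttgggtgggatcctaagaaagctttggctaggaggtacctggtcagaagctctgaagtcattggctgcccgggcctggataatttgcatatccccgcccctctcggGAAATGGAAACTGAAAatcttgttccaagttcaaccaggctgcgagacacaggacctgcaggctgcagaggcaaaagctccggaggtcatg
Acta1: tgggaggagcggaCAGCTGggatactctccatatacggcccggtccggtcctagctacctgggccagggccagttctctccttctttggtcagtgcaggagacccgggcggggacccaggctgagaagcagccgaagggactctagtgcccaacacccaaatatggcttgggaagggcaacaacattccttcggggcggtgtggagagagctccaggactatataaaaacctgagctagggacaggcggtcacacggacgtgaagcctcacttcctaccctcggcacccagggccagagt
Ckm: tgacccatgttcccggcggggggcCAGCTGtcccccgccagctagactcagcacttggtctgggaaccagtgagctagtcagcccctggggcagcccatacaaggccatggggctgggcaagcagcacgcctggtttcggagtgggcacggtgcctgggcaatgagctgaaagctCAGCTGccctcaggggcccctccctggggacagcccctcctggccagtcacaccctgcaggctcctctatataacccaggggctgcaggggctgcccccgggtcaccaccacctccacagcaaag
Myl11: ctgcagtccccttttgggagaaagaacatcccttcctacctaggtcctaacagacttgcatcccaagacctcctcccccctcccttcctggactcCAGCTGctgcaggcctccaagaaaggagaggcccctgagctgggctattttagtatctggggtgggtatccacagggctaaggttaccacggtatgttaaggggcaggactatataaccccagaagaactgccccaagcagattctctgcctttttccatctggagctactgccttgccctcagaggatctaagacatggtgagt

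The remaining 7 groups held 5 to 10 genes each. One of 10 genes joined Rpl30, Efhd1, Fgl2 and Cav1 (caveolin 1) and was highest in T12 (1.92), T11 (1.88) and T9 (1.00). One of 9 genes held Gap43, a protein of growing axons and immature Schwann cells, with Crmp1 and Mstn, and was lowest in T2 (-1.85) and T12 (-1.44). One of 8 genes joined Dhrs7c and Tfap2b with the water channel gene Aqp1 and Actg2, the actin of enteric smooth muscle, and was highest in T11 (2.41) and T9 (1.90). Ngfr grouped with Fst (follistatin, an inhibitor of activins) and Mycn, and that group of 7 genes was lowest in T12 (-2.85), T1 (-1.64) and T11 (-1.36). The groups of 5 genes led by Mdga2, Itga11 and Des were highest in T2 (2.20), in T2 (1.33) and in T3 (3.06). T12 was the lowest tumour in all 3, at -2.09, -1.66 and -0.98.

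The choice of pairs fixed for testing followed textbook relations, with results of these data known. Pairs chosen this way can pass more often than pairs chosen blind to the data, so their p-values are descriptions. Of 12 pairs, 10 could be given an r, and 6 passed a two-sided permutation test of Pearson's r with Benjamini-Hochberg adjustment over the 10 pairs. Irf7 and its target Mx1 had r = 0.97 (adjusted p = 0.0001, from the smallest p that 100000 permutations can give, 1e-05; rho = 0.92, adjusted p = 0.0004), and r was still 0.97 without the 2 tumours farthest from the median. Nefl and Prph had r = 0.95 (permutation, adjusted p = 0.0002; rho = 0.88, adjusted p = 0.00235; 0.95 without 2 tumours). Olig1 and Pdgfra had r = 0.86 (permutation, adjusted p = 0.00383), but their rho of 0.55 did not pass (adjusted p = 0.101), and r was 0.75 without T1 and T4. Olig1 was not detected in 6 of the 12 tumours, so this rho also ranks levels that have no order. Over the 9 high-background tumours no r was given, because Olig1 forms separate clusters of high and low level there.

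Col1a1 and Postn, genes of the collagen matrix, had r = 0.80 (permutation, adjusted p = 0.00722; rho = 0.69, adjusted p = 0.0333). Cdk1 and Ccnb2, partners at entry into mitosis, had r = 0.75 (permutation, adjusted p = 0.0116; rho = 0.80, adjusted p = 0.00763), and r was 0.63 without T1 and T11. Nefl and Mbp, of axon and myelin, had r = 0.65 (permutation, adjusted p = 0.0332; rho = 0.71, adjusted p = 0.0307), and over the 9 high-background tumours their r of 0.64 did not pass (permutation, adjusted p = 0.0806). Nefl with Olig1 (r = 0.46, permutation adjusted p = 0.185), Olig1 with Sox10 (0.16, 0.682), Cdk1 with Mbp (-0.44, 0.185) and C1qb with RT1-Ba (0.02, 0.956) did not pass. The Olig1 and Nefl patterns therefore were not shown to go together in these 12 tumours.

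No cell cycle gene reached an SD of 1, but the genes of the list went up and down together. The median r between the 31 ranked members was 0.77, against 0.0007 for all ranked features, and the highest SD was that of Plk1, a mitotic kinase (0.83). The list stood at -1.22 in T11 and -0.46 in T1, relative to gene means, and at 0.61 in T2, 0.51 in T8, 0.46 in T9 and 0.43 in T6. Plk1 was at 6.70 in T11 and 7.60 in T12 and between 8.48 and 9.68 in the other 10 tumours. Both BDIV tumours were thus the lowest for Plk1, whereas the list as a whole was lowest in T11 and T1. Of the 31 genes, 6 (19.4%) differed between the background ranges described below, all lower in the low-background arrays, against 19.8% of all features. Between strains 9 (29.0%) differed, against 2.61% of all features. The members vary together, so these 9 calls are not independent of one another. Over all features the strain count was 12 to 1183 when each tumour was left out in turn. For either factor 0 calls were left over all features in limma's test with the other as a covariate.

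Background signal separated the arrays into ranges, and this was checked against the variable genes. Before correction, the 25th percentile of the signal lay at 61.8 to 62.5 in T9, T11 and T12 and at 82.6 to 94.6 in the other 9 tumours. The first are called low-background and the second high-background arrays. Both BDIV tumours lie in the low range and T9 is the only other tumour there, so strain BDIV and background range cannot be told apart except through T9. Between the ranges, 2317 of 11710 features (19.8%) differed in limma's moderated test at an adjusted p under 0.05, 1210 of them higher (10.3%) and 1107 lower (9.45%) in the low-background arrays. The count was 970 without T11, 1229 without T12 and 0 with sex and strain as covariates (1634 at an unadjusted p under 0.05). With median scaling the split was 3486 higher and 400 lower, and with the authors' values 2375 higher and 531 lower. The median difference over all features was 0.32 and 0.23 under these scalings and -0.02 in the main values.

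Of the 466 features with an SD of at least 1, 79 (17.0%) differed between the ranges, a share near the 19.8% of all features. Of the 79, 64 were higher and 15 lower in the low-background arrays, against 1210 and 1107 over all features. Their median share of variance between the ranges was 10.5%, against 18.0% for all features, and 61 of the 466 had over 50%. Within the 9 high-background tumours alone, 330 of the 466 kept an SD of at least 1, and 359 did after the mean of each range was subtracted. For Olig1, Nefl and Acta1 the share of variance between the ranges was 2.78%, 0.29% and 1.58%, and their SDs within the high-background tumours were 4.71, 3.06 and 3.33. The median share was 10.1% in the Olig1 group, 3.17% in the Nefl group, 2.80% in the muscle group and 4.14% in the interferon group, but 51.5% in the group of Rpl30 and Cav1 and 41.4% in the group of Ngfr. The median SD within the high-background tumours, against that over all 12, was 1.56 against 1.46 in the Olig1 group, 1.49 against 1.4798 in the Nefl group, 1.85 against 1.65 in the muscle group and 1.60 against 1.63 in the interferon group. It was 1.01 against 1.35 in the group of Rpl30 and Cav1 and 1.01 against 1.32 in the group of Ngfr.

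**Figure D5:**
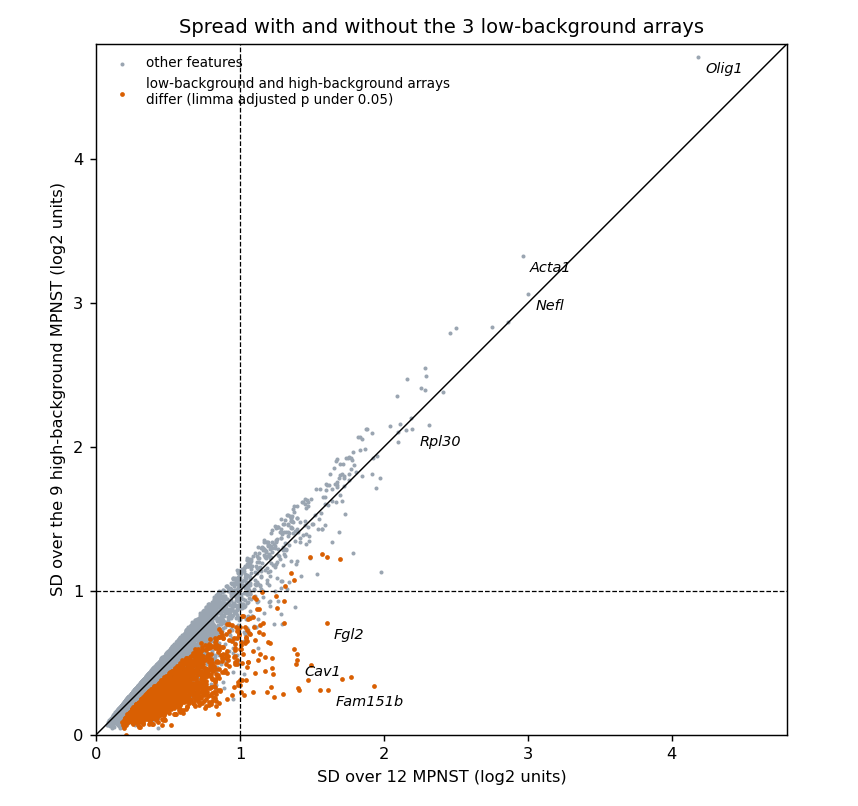
SD over the 9 high-background MPNST (vertical axis) against the SD over all 12 (horizontal axis) for each ranked feature, in log2 units, with a line of equality and dashed lines at 1. Orange points differed between the low-background and high-background arrays in limma's test. Olig1, Nefl and Acta1 lie on or above the line of equality, while Cav1, Fgl2 and Fam151b have SDs of 0.52, 0.78 and 0.31 over the 9, against 1.40, 1.60 and 1.61 over the 12.

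Among genes that differed between the ranges, the largest differences upward in the low-background arrays were those of Fgl2 (a fibrinogen-like protein), Cav1, Efhd1 (a mitochondrial calcium-binding protein) and Sfrp5 (an inhibitor of Wnt ligands). Cav1 averaged 9.33 in the low-background and 6.57 in the high-background tumours, a difference of 2.76 ± 0.39 (SE, n = 3 and 9, adjusted p = 0.00133 in limma's test). With limma's inference of the controls, the difference was 1.72 for Cav1 and 1.38 for Fgl2, whose call ended (adjusted p = 0.0593 in limma's test), and Efhd1 had the largest, at 2.79. The largest downward were those of Fam151b, Ngfr, Ifi47 (an interferon-inducible GTPase) and Slc40a1 (ferroportin, the iron exporter). Their differences were -2.73, -2.42, -2.35 and -2.18 in this order, and -0.80, -2.54, -0.45 and -1.26 with limma's inference, under which Ngfr (adjusted p = 0.0819 in limma's test) and Slc40a1 (0.203) were no longer called. The sizes and order of the Fam151b and Ifi47 differences thus depend on the background correction. With sex and strain as covariates none of the 8 genes was called, and the Fam151b difference was 0.12. Within the high-background tumours, Ngfr still had an SD of 1.22.

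Fam151b was low in both BDIV tumours and not in T9. It was not detected in T11 and T12, at 4.54 and 4.60, and lay between 8.27 and 9.07 in the other 10 tumours, with T9 at 8.65. In a limma fit added after the data were seen, its difference between T9 and the 6 high-background F1 hybrids was 0.08. That comparison lies within a strain. The same fit gave -4.27 (limma's test, adjusted p = 3.1e-05) between the BDIV tumours and the 3 high-background BDIX and congenic tumours. There strain and range change together and cannot be told apart. Ifi47 was at 4.65 in T11 and 4.51 in T12, at 6.43 in T9 and at 7.12 to 8.51 in the other 9. Cav1 in T9, at 8.14, lay above all 6 high-background F1 hybrids (5.79 to 7.32) and below T11 and T12, both at 9.92.

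In the same fit, 18 features (0.154%) differed between T9 and the 6 high-background F1 hybrids, and 1797 did at an unadjusted p under 0.05. T9 is a lone tumour there and is assumed to vary like the others. Between the 2 BDIV and the 3 high-background BDIX and congenic tumours, 1396 features (11.9%) differed. These tumours differ in strain as well as in range. Of those 1396, T9 lay outside the 6 F1 hybrids on the side of the BDIV tumours for 861 (61.7%) and on the other side for 49 (3.51%), and over all 11710 features for 34.7% and 9.21%. The 2 comparisons share no arrays.

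Strain gave 306 features (2.61%) in limma's F test over F1 hybrid, BDIX and BDIV with sex as a covariate and a term of its own for T6, and 49 of the 466 variable features were among them. Without T12 the count was 12, and without T9 it was 1183. With background range as a further covariate 0 features passed in limma's test, and 1156 did at an unadjusted p under 0.05. Fam151b had the smallest p of the named genes and was followed by Rgr, Lrfn5 and Fam111a. Rgr was detected only in T12 (7.33), T11 (6.76) and T9 (5.34), the low-background arrays, and was ranked only through them, so it had to differ and its p supports nothing. Lrfn5, a synaptic adhesion molecule, was at 7.39 and 6.84 in the 2 BDIX tumours and at or below 5.66 in all others, so it set BDIX apart. Fam111a was lowest in T11 (6.16), T1 (7.70) and T5 (7.77), and reached 8.83 and 9.06 in T3 and T4.

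Sex gave 0 features (0%) in limma's test with strain as a covariate, 949 at an unadjusted p under 0.05, and 1 without T11 or without T12. Strain and sex overlap, since 5 of the 6 males are F1 hybrids and 2 of the 6 females are. The muscle-high tumours T2 and T10 and the Nefl-low tumours T2, T8, T9 and T10 are all male F1 hybrids, and T7 is the male F1 hybrid that is neither.

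Some tumours carried more of the variability than others. T1 was the tumour farthest from the mean for 108 of the 466 features, T12 for 74, T2 for 73 and T11 for 60, against 5 for T5 and 9 each for T7 and T8. Over all 11710 features the order was another: T11 was farthest for 2172, T12 for 1979, T1 for 1539 and T2 for 1392. A single tumour separated from all others by over 50% of the range accounted for 28 of the 466 features. In T1, these were Jakmip2, Slc7a3, Gal (galanin), Pak1 and 2 unnamed features, all high. In T3 they included Slc45a2, a transporter of pigment cells at 9.22, which was at or below 6.30 elsewhere, and in T2 Col2a1, the collagen of cartilage, at 8.48 against 6.35 or less elsewhere.

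Among these 28, T10 was low for Snrpn and Snurf, which are encoded by a shared imprinted transcript. Snrpn was at 7.03 in T10 and between 10.34 and 11.98 in the other 11 tumours, and Snurf was at 5.12 in T10 and between 7.82 and 10.10 in the others. Both are named here after their values were seen. For both genes T2 was the second lowest tumour.

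ENU ethylates DNA, and Mgmt encodes the enzyme that removes ethyl groups from guanine. Mgmt, a member of the detoxification list named after its values were seen, had an SD of 1.21. It was detected in all tumours, with the lowest level in T12 (5.79), a median of 7.18 and the highest levels in T4 (9.13) and T10 (8.90). Erbb2, whose mutation is known in rat nerve tumours induced by ENU, had an SD of 0.28 and lay between 6.41 and 7.25, below the median SD of all features. An expression array does not show mutations.

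In the same list, Hmox1, which is induced by heme and oxidative stress, had an SD of 1.67 and was high in T4 (12.65), T1 (12.34), T7 (11.83) and T3 (11.65), the Olig1-high tumours, and at 10.27 in T10 and 7.96 to 9.55 in the other 7. Aldh1a1, a retinaldehyde dehydrogenase, ranged from 5.34 in T9 to 10.82 in T3. Of the growth factor list, Igf2, an imprinted growth factor, was highest in T3 (10.37) and T1 (10.01), and Dlk1, another imprinted gene, reached 8.40 in T7 and 6.81 in T6 and was at or below 5.44 elsewhere. Igfbp2, which binds such factors, ranged from 5.27 in T10 to 11.04 in T11.

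Of 5 ranked red blood cell genes 0 had an SD of at least 1, but their median SD was 0.77, above the 0.38 of all features, and the list was lowest in T2, at -1.74. The macrophage list stood at 0.99 in T1 and -0.67 in T12, with a median r of 0.51 between members. Mrc1, the mannose receptor of macrophages, was the most variable of the 17, at an SD of 0.95, and ranged from 6.09 in T12 to 8.96 in T10. The neutrophil, B and plasma cell and mast cell lists had 1 ranked member each and are not described.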

How the data were processed

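RNA of each tumour was hybridised to a 1-colour Illumina rat beadarray of 21791 probes. The deposited intensity values are BeadStudio 3.0 probe signals per the submitters' processing notes, not background-corrected or normalized as judged from the values, and each has a deposited detection p-value. The deposited table of the authors' background-subtracted values, floored at 16 and put on a log2 scale here, served as an alternative; its exact processing is not given in the sources used here.

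Signals of the 12 arrays were background-corrected by normexp (limma 3.58.1, R 4.3.3) with an offset of 16, quantile-normalized and converted to log2. The control mean and SD that normexp needs were read from the signals at given detection p-values. This was chosen after the data were seen, because limma's own inference gave control SDs far above those of the signals; that inference is kept as an alternative. Features detected (p under 0.05) in at least 3 tumours were ranked by SD. Of the probes, 13387 have 1 symbol in the array annotation and 8404 have none. Of several probes of a gene, 1 was used.

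Background range (raw 25th percentile under 75 or not), sex and strain were tested with limma's moderated tests and Benjamini-Hochberg adjustment over 11710 features, and gene pairs by permutation (scipy 1.17.1). Named genes are the 20 most and 12 least variable, up to 3 most variable members of each list, the nearest and farthest correlates of Olig1, Nefl and Acta1, the range genes with the 4 largest differences each way, the 4 strain genes of lowest p, and label markers; others are said to be named after their values were seen or are members of the groups and lists described. Members and lists were chosen with earlier results of these data known. Statistical scripts were tested on simulated data. The number of arrays limits the precision.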

Additional observations from a re-analysis of the deposited data

Results flagged for a closer look

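Among the 7 F1-hybrid tumours, the 20 most variable named genes were each checked for a tumour that stands far from the rest (Dixon's test, critical value 0.568 for 7 samples). Prl was picked out: it stood at 13.13 in T7, against 4.68 to 7.02 in the other 6 F1-hybrid tumours, and the gap to the nearest of them was 0.723 of the whole range. Chance picks out about 1 in 20 groups of values not chosen for their spread. These 20 genes were chosen for their high SD over tumours that include these 7, so that rate does not hold here and the value is a description.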

How the results depend on the processing

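The number of features with an SD of at least 1, 466, was 978 with the authors' values, 233 with an offset of 50 and 147 with the control mean and SD inferred by limma, and lay between 429 and 524 when each tumour was left out in turn. The causes were not tested. Of the 20 most variable genes, 9 were still among the top 20 by the median absolute deviation and 12 with limma's inference. The 2317 features that differed between background ranges became 3886 with median scaling, 0 with sex and strain as covariates, 18 in T9 against the high-background F1 hybrids and 1396 in BDIV against the high-background BDIX and congenic tumours, where fewer arrays were compared; leaving out each tumour gave 970 to 2374. Sex gave 0 to 1 features when each tumour was left out. The 306 strain features became 195 with median scaling, 0 with sex and background range as covariates, and 12 to 1183 when each tumour was left out: 12 without T12, 40 without T3, 50 without T11, 78 without T8, 99 without T4, 129 without T7, 133 without T10 and 1183 without T9. Of the fixed gene pairs, 6 passed over 12 tumours and 3 of the 5 tested over the high-background tumours. The difference between background ranges of Fam151b, -2.73, was 0.12 with sex and strain as covariates and 0.0821 in T9 against the high-background F1 hybrids. Both of these values rest on T9, the only low-background tumour whose strain also has high-background arrays. The other 7 named range genes kept their sign under the alternatives run but lost their call with sex and strain as covariates. Without T11 or without T12, 5 of the 8 lost it. Ngfr also lost its call without T2, T3, T4, T6, T7, T8 or T10 (adjusted p = 0.064 to 0.071 in limma's test). Slc40a1 also lost its call without T4 or without T7 (adjusted p = 0.055 and 0.060 in limma's test). No paired analysis was possible because the tumours form 1 group and their numbers only name them. Genes near the background level have only a bound, and each tumour has 1 array.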

Other observations

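In T7, 3 genes stood apart from all other tumours by over 50% of their range, and they are named here after their values were seen. Prl, also highest in T7, did not, since T4 stood at 9.01. Chgb, which encodes a granule protein of endocrine cells and neurons, stood at 11.82 in T7 and at or below 7.75 in the other 11 tumours. Pomc, the precursor of the pituitary hormone ACTH, stood at 9.61 in T7 and at or below 6.77 elsewhere. Six6, a transcription factor of the developing eye and pituitary, stood at 8.92 in T7 and at or below 6.52 elsewhere. T7 was thus the highest tumour for these genes and for Prl.

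T3 was set apart by Clca1, at 9.72 against 5.36 or less in the other tumours, and by Tex19.1, at 8.71 against 5.53 or less. Tyrp1, an enzyme of melanin synthesis, was also highest in T3, at 7.47, followed by T11 at 7.32.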
